A study of Mus musculus with 4 samples.

Results

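The cleavage machinery of the Notch receptor was followed in Beko cells, a mouse leukemia pre-T cell line in which Notch signaling is constitutively on, by RNA-Seq. The 8 genes described are 6 genes of the γ-secretase complex, Psen2, Ncstn, Aph1a, Aph1b, Aph1c and Psenen, and the 2 sheddase genes Adam10 and Adam17. They were chosen by symbol for their role in Notch cleavage, with earlier results of these data known, out of 24391 genes in the count table. All 8 had enough reads to be among the 12266 genes tested. Beko cells were kept for 48 h with the γ-secretase inhibitor (GSI) DAPT and were either harvested (GSI, 2 libraries) or washed and returned to culture without the inhibitor for 24 h (washout, 2 libraries). The labels give the DAPT dose as 10 mg/ml, whereas the methods of the study give the same figure per ml in micrograms, and the methods add that the inhibitor was renewed at 24 h. All 4 libraries are therefore from inhibitor-treated cells of the same line, and no genotype or other agent distinguishes them. No library of cells cultured equally long in GSI or in DMSO was analysed here, so washout and the additional culture time cannot be told apart. The labels do not state that replicates came from separate cultures, so p-values measure the spread between these libraries, which may be technical.

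Notch receptors are cut in sequence at the membrane before their intracellular domain (NICD) can enter the nucleus and join RBPJ. A disintegrin and metalloprotease of the ADAM family first sheds the ectodomain, and ADAM10 is the protease that does so upon ligand binding, while ADAM17 is best known for releasing tumor necrosis factor and can also cut Notch. The remaining stub is then cleaved within the membrane by γ-secretase, which is built from a presenilin (the catalytic aspartyl protease), nicastrin (Ncstn, the large glycoprotein that receives substrates), an APH1 protein (a scaffold) and the small subunit encoded by Psenen. A complex holds only 1 APH1 protein, so complexes of different composition exist side by side. Rodents carry Aph1b and Aph1c as a recent duplicate pair, next to the more broadly expressed Aph1a. DAPT blocks γ-secretase itself and leaves the ADAM step in place.

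The libraries held between 13716199 and 36364200 counts, the replicate 2 libraries being the shallower ones in both conditions. Levels are given as CPM, gene counts scaled to a common library size with TMM factors, and 3 counts correspond to between 0.0881 and 0.223 CPM. A gene was called changed upon washout at an adjusted p below 0.05 and a log2 fold change (washout minus GSI) above 1 or below -1, in edgeR's quasi-likelihood test, with p-values adjusted over all genes tested after Benjamini and Hochberg. The textbook Notch targets Hey1 and Dtx1 were higher upon washout, which cannot be told apart from the additional culture time. Hey1, a Notch-responsive transcriptional repressor, was at 16.2 and 18.1 CPM under GSI and at 179.9 and 199.7 CPM upon washout, and Dtx1, a ubiquitin ligase of the Notch pathway, was at 46.1 and 64.4 CPM under GSI and at 409 and 605 CPM upon washout (log2 fold changes of 3.47 ± 0.117 and 3.20 ± 0.249, SE; edgeR adjusted p of 0.000281 and 0.000396). Of the 12 T-cell progenitor markers examined, 12 were tested and none was at 0, with a summed level of 7349 and 7874 CPM under GSI and 6529 and 6433 CPM upon washout. Single markers moved both ways, with 3 higher and 5 lower at an adjusted p below 0.05, from Ptcra, part of the pre-T cell receptor (log2 fold change of 2.37), to the transcription factor gene Gata3 (-1.67). The B cell markers summed to at most 0.960 CPM in any library, with Pax5, Ms4a1 and Ebf1 at 0.

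Aph1b and Aph1c are shown first by sequence, because they are the 2 members with the largest fall and because their similarity bears on how their reads can be assigned. They lie head to tail on the minus strand of chromosome 9 (mm9), Aph1b at chr9:66623009-66643297 and Aph1c at chr9:66662801-66682533. The 19.5 kb between them hold 3 other annotated genes. Their coding sequences matched at 745 of 774 aligned bases (96.3%), whereas Aph1a matched Aph1b at 63.2% and Aph1c at 61.6%. Over the first 150 coding bases, printed 5′ to 3′ from GENCODE transcripts of the mm9 build, capitals mark the 16 positions at which the pair differs:
Aph1b: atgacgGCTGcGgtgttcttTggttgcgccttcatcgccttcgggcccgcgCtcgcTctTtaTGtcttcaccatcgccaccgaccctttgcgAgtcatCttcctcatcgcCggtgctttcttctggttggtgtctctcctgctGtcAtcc
Aph1c: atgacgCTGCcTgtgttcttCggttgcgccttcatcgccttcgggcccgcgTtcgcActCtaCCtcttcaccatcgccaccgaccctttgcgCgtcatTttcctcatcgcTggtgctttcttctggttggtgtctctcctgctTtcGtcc

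Exact matches were also counted over all exons, coding bases included. Such a share is not the same measure as the match of aligned bases above. Exact stretches of 50 bases shared with the other gene made up 17.0% of those in Aph1b exons and 16.7% in Aph1c exons, and at 75 bases the shares were 10.5% and 10.3%. No stretch of either length was shared between any other pair of the 8 genes. A read that falls in a shared stretch could have been assigned to either copy, since 1 alignment per read was kept, and the individual levels of Aph1b and Aph1c are to that extent uncertain.

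The promoters of the called members were read from RefSeq (250 bases before to 50 after the annotated start), and each matched mm9 once. They are shown to compare the 3 genes that passed both thresholds, with the GC box of SP-family factors (GGGCGG, or CCGCCC on the other strand) in capitals. The windows are chr9:66643181-66643480 for Aph1b, chr9:66682464-66682763 for Aph1c and chr1:182186382-182186681 for the upstream start of Psen2, all on the minus strand:
Aph1b: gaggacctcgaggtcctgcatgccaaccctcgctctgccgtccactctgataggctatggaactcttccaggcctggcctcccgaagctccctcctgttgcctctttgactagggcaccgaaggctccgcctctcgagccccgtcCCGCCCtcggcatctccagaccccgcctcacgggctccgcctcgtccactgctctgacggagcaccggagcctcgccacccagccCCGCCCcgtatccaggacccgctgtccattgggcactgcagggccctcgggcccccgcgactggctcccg
Aph1c: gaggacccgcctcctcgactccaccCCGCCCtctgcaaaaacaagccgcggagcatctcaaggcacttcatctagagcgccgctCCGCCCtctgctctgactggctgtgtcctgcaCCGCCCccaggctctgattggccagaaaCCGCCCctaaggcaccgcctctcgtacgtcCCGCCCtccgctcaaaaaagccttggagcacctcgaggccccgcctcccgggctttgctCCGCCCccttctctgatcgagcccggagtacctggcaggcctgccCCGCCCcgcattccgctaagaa
Psen2: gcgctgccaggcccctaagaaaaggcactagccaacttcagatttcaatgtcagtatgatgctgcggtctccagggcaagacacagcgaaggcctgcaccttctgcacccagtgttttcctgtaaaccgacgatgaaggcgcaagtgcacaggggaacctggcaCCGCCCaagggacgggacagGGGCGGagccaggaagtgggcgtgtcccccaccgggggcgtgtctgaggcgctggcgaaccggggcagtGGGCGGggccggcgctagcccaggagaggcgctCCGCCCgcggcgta

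The Aph1b window held 2 GC boxes, that of Aph1c 7 and that of Psen2 4. GC boxes occurred in 6 of the 10 promoter windows of the 8 genes and in 35.7% of all 32851 RefSeq promoters. The RBPJ motif (TGGGAA, or TTCCCA on the other strand) was absent from these 3 windows. It was found in 3 of the 10 windows, namely in a second, downstream promoter of Psen2 and in 1 each of Aph1a and Psenen, compared with 25.6% of all promoters. The CCAAT box (CCAAT or ATTGG) was found once in the Aph1b window, once in the Aph1c window and not in the upstream Psen2 window, in 5 of the 10 windows in all and in 37.4% of all promoters. These are letter matches on either strand and do not show binding. The study mapped RBPJ binding in Beko cells by ChIP-Seq, but those data were not used here.

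Among the γ-secretase genes, the alternative scaffold genes Aph1b and Aph1c were 4.15-fold and 4.46-fold and Psen2 was 2.07-fold higher in GSI than upon washout, and Ncstn was 1.33-fold higher. The main scaffold gene Aph1a and Psenen did not pass the test, nor did either sheddase gene. Of the 8 genes, 3 were called lower (Psen2, Aph1b and Aph1c) and 0 higher, in a comparison in which 11.7% of all genes tested were called lower and 7.74% higher. At an adjusted p below 0.05 without the fold limit, 4 of the 8 were lower and 0 higher, against 25.4% and 27.0% of all genes. The median log2 fold change of the 8 genes was -0.46, that of all genes tested -0.01. Both washout libraries were below both GSI libraries for 6 of the 8 genes (39.1% of all genes) and above them for 1, Adam17 (38.2% of all genes).

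**Figure D1:**
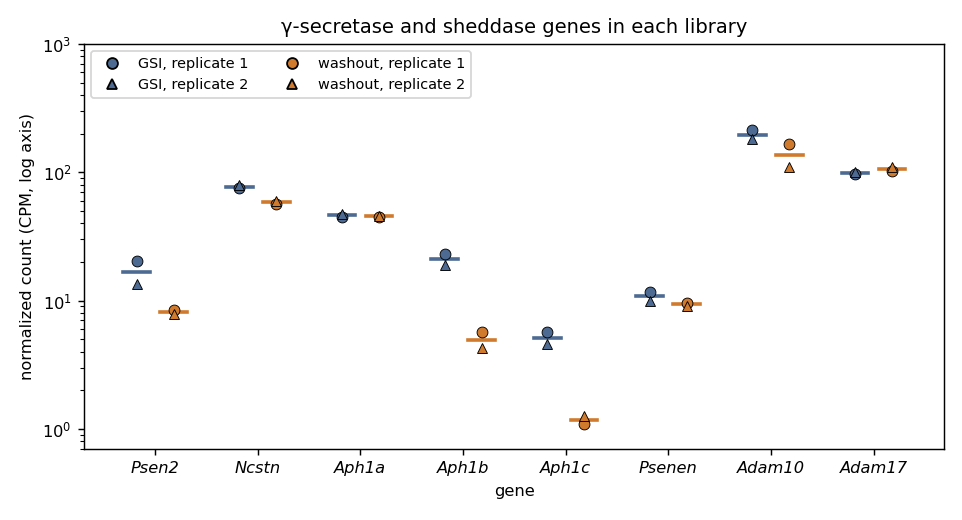
Normalized count (CPM, log axis) of each gene in the 4 libraries; circles are replicate 1, triangles replicate 2, blue is GSI, orange is washout, and bars are group means. Aph1b and Aph1c show the widest gap between the conditions, Aph1a has overlapping libraries, and the 2 washout libraries of Adam10 lie apart at 165 and 109.9 CPM.

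Psen2 (chr1:182157135-182193569, minus strand) encodes a presenilin, the subunit that carries the active site. Its level was 20.2 and 13.4 CPM under GSI and 8.52 and 7.81 CPM upon washout, from 647, 195, 290 and 105 counts. The 2 GSI libraries were far apart, but both lay above both washout libraries. Psen2 fell by 1.05 on the log2 scale (SE 0.228, 95% interval -1.60 to -0.49, edgeR adjusted p = 0.0102), corresponding to a 2.07-fold higher mean level in GSI. The call depended on the deeper GSI library. Without GSI replicate 1 the log2 fold change was -0.71 with an adjusted p of 0.0583, and without washout replicate 2 it was -0.98, just inside the fold limit. With an offset for GC content and gene length it was -0.83 (adjusted p = 0.0234), also inside the limit.

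Ncstn (chr1:173996144-174012926, minus strand), the nicastrin gene, showed a smaller difference with little spread. It was at 75.5 and 79.1 CPM under GSI and at 56.7 and 60.0 CPM upon washout, without overlap between the conditions. The gene fell by 0.41 on the log2 scale (SE 0.0924, 95% interval -0.63 to -0.18, edgeR adjusted p = 0.0119) and so passed the test without reaching the fold limit. The adjusted p rose to 0.0537 without GSI replicate 1 and to 0.0917 without GSI replicate 2, at log2 fold changes of -0.45 and -0.36.

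The 3 Aph1 genes did not move alike. Aph1a (chr3:95697892-95702211, plus strand), the broadly expressed scaffold gene, was at 44.8 and 47.5 CPM under GSI and at 44.9 and 45.9 CPM upon washout. The conditions overlapped, and the log2 fold change of -0.02 had a 95% interval of -0.26 to 0.21 (edgeR adjusted p = 0.862), so that a change of more than 0.26 in either direction lay outside the interval. Its sign turned under 5 of 14 alternative analyses, none of which passed the test.

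Aph1b, encoding the alternative scaffold, had the smallest adjusted p of the 8 genes. Its level was 22.9 and 19.1 CPM under GSI and 5.70 and 4.24 CPM upon washout, from 734, 279, 194 and 57 counts. Every washout library was thus well below every GSI library. Aph1b fell by 2.05 on the log2 scale (SE 0.202, 95% interval -2.55 to -1.56, edgeR adjusted p = 0.000651), a mean level 75.9% lower upon washout. Only 3.34% of the genes tested had a log2 fold change this low or lower.

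Aph1c, the duplicate of Aph1b, showed the same picture at a lower level, with 5.69 and 4.59 CPM under GSI and 1.09 and 1.26 CPM upon washout. The washout values rest on 37 and 17 counts, with 95% counting intervals of 0.765 to 1.50 and 0.737 to 2.03 CPM, which cover counting error only and lie below the GSI intervals. Aph1c fell by 2.16 on the log2 scale (SE 0.285, 95% interval -2.85 to -1.46, edgeR adjusted p = 0.00160), or by 77.6% of the GSI mean. Leaving out any 1 of the 4 libraries gave log2 fold changes of -2.31 to -1.87 for Aph1b and -2.28 to -1.99 for Aph1c, all past both thresholds. The intervals of the 2 genes overlap over most of their length. When the 2 genes were summed as 1, an alternative added after seeing the data, the counts were 916, 346, 231 and 74. The log2 fold change of the sum was -2.07 (SE 0.178, edgeR adjusted p = 0.00047). The sum does not depend on how shared reads were divided between the pair. Most of its counts are those of Aph1b, so it describes the pair and cannot show how far Aph1c fell by itself.

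Psenen (chr7:31346887-31348203, minus strand) encodes the small subunit needed for presenilin to mature, and its exons cover only 0.65 kb. The gene was at 11.6 and 9.94 CPM under GSI and at 9.61 and 9.15 CPM upon washout. The conditions did not overlap, but they were separated by less than the 2 GSI libraries were from each other. The log2 fold change was -0.20 (SE 0.170, 95% interval -0.62 to 0.21, edgeR adjusted p = 0.355).

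Adam10 and Adam17, the sheddase genes, differed from each other in their values. Adam10 (chr9:70526804-70628036, plus strand), the ligand-dependent Notch sheddase, was at 212 and 182 CPM under GSI and at 165 and 109.9 CPM upon washout. Both washout libraries were below both GSI libraries, and the 2 washout libraries were further apart than washout replicate 1 was from GSI replicate 2. The log2 fold change of -0.51 (SE 0.197, 95% interval -0.99 to -0.03) had an unadjusted p of 0.0392 and an edgeR adjusted p of 0.0695, which missed the threshold. DESeq2 on the same counts gave -0.50 with an adjusted p of 0.0271, and 8 of 14 alternatives placed the gene past the threshold. Washout replicate 2 carries much of the difference: the log2 fold change was -0.24 (adjusted p = 0.186) without it and -0.84 (adjusted p = 0.00122) without washout replicate 1.

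Adam17 (chr12:21329370-21379493, minus strand), which encodes the tumor necrosis factor converting enzyme, was at 97.3 and 101 CPM under GSI and at 103 and 110.4 CPM upon washout. The washout libraries were slightly above the GSI libraries, with a log2 fold change of 0.10 (SE 0.0922, 95% interval -0.12 to 0.32, edgeR adjusted p = 0.392). With scaling by total count alone, which moved the median of all genes from -0.01 to -0.21, the value for Adam17 was -0.10. The difference between Adam10 and Adam17 in their change was not tested.

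**Figure D2:**
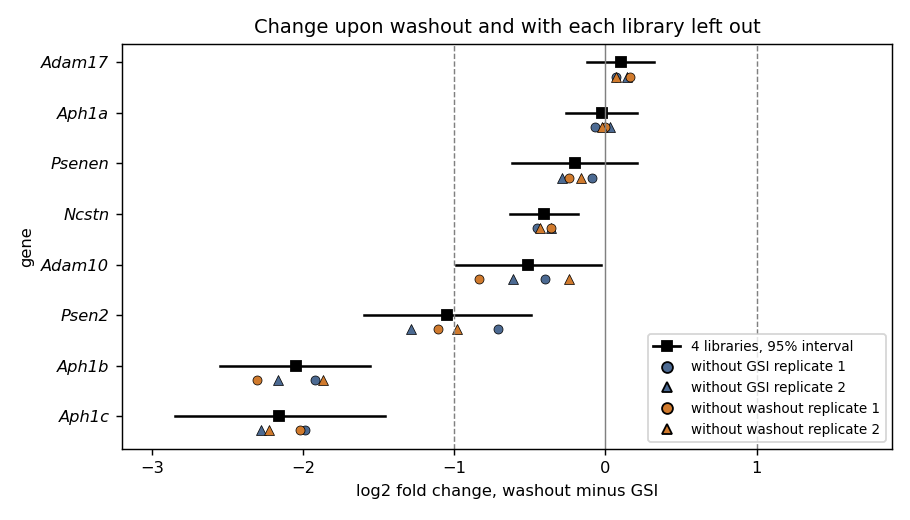
Log2 fold change (washout minus GSI) of each gene; black squares and lines are the estimate from 4 libraries with its 95% interval, coloured points the estimates with 1 library left out, and dashed lines the limits at -1 and 1. Aph1b and Aph1c stay below -1 whichever library is left out, Psen2 moves between -1.29 and -0.71, and Adam10 moves between -0.84 and -0.24 when a washout library is left out.

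**Figure D3:**
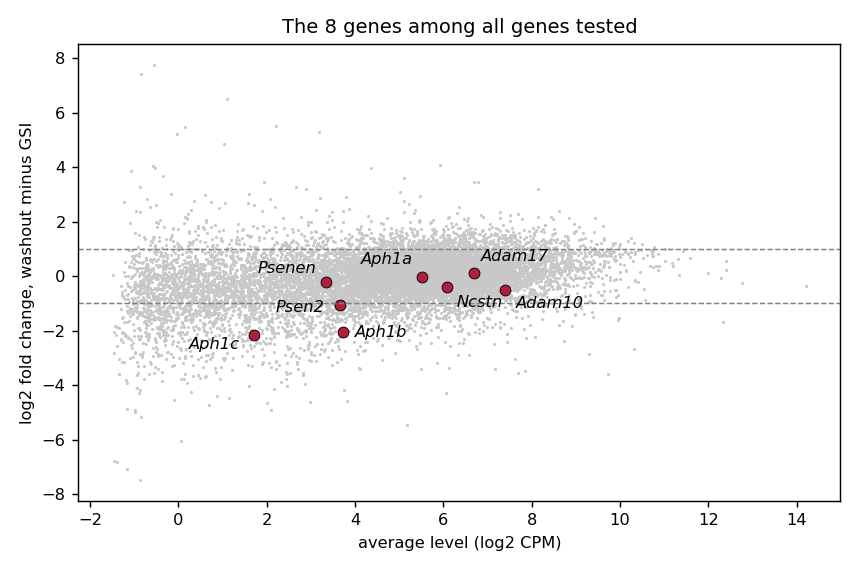
Log2 fold change against average level (log2 CPM) for all 12266 genes tested (grey) with the 8 genes in red; dashed lines mark -1 and 1. Aph1b and Aph1c lie in the lower part of the cloud, Psen2 lies at the lower line and the other 5 genes lie between the lines.

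Some of these genes share exon bases with a gene on the opposite strand, and the strand setting of the counting is not given in the sources used here. Aph1a shares 445 bases (15.5% of its exon length) with Car14, a carbonic anhydrase gene at 3.32 to 4.16 CPM. Ncstn shares 195 bases (4.91%) with the coatomer gene Copa, which was at 442 to 466 CPM and had a log2 fold change of 0.07. Adam17 shares 97 bases (1.36%) with Iah1. Aph1c shares 28 bases with Gm17098, which has no row in the count table. None of Car14, Copa and Iah1 passed the test (edgeR adjusted p of 0.622, 0.589 and 0.582).

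To set the genes side by side, levels were divided by the length of their exons (CPM per kb). Adam10 had the highest level of the 8 genes in each library, with 43.0 and 36.8 CPM per kb in GSI and 33.5 and 22.3 upon washout. Next came Ncstn, Psenen, Aph1a and Adam17, all between 13.6 and 19.9 CPM per kb in every library, whose order changed between libraries. Psen2 was at 5.28 and 3.49 CPM per kb in GSI and 2.22 and 2.04 upon washout, and Aph1b at 4.44 and 3.70 in GSI and 1.10 and 0.821 upon washout. These 2 genes changed places between the GSI replicates and so do not differ there beyond their spread on this scale. With the longest transcript of each gene as its length they did not change places, Psen2 being at 10.0 and 6.62 CPM per kb in GSI and Aph1b at 4.50 and 3.75. Aph1c was the lowest in all libraries, at 0.209 to 1.09 CPM per kb. By longest transcript Adam17 was between 21.8 and 24.7 CPM per kb, outside the range given above for its group. In washout replicate 2 it lay above Adam10, which was at 23.9, so the first place of Adam10 depends there on the gene model.

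Within each library the members can be set against each other, which does not depend on library size. Aph1a contributed 73.8% and 78.3% of the summed Aph1 level per kb in GSI and 92.3% and 93.8% upon washout. Aph1b and Aph1c together made up the remaining 26.2% and 21.7% in GSI and 7.7% and 6.2% upon washout. Accordingly, the ratio of Aph1a to the Aph1b and Aph1c sum was 2.82 and 3.62 in GSI and 11.9 and 15.1 upon washout, while the summed level of the 3 genes was 21.2 CPM per kb in both GSI libraries and 17.0 and 17.1 upon washout. The ratio of Aph1b to Aph1c overlapped between the conditions, with 4.07 and 4.20 in GSI and 5.29 and 3.38 upon washout.

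**Figure D4:**
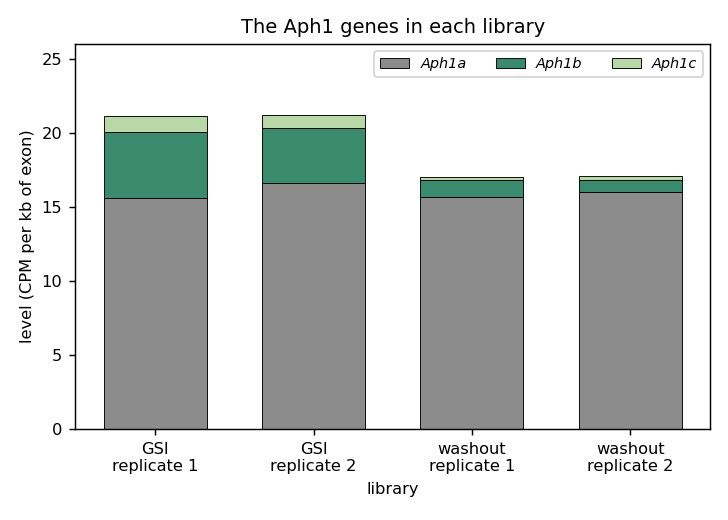
Level (CPM per kb of exon) of Aph1a, Aph1b and Aph1c in each of the 4 libraries, stacked. The Aph1a part is about as high in all libraries, at 15.6 to 16.6 CPM per kb, and the Aph1b and Aph1c parts are smaller in both washout libraries.

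The ratio of Psen2 to Ncstn per kb was 0.278 and 0.175 in GSI and 0.156 and 0.135 upon washout, so that GSI replicate 2 lay closer to the washout libraries than to its own replicate. The ratio of Adam10 to Adam17 was 3.16 and 2.60 in GSI and 2.33 and 1.44 upon washout. With 2 libraries in each condition an exact permutation test cannot pass the threshold, and these ratios are given as a description.

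The genes whose libraries followed Aph1b most closely were Adck3, Gbp10 and Isg20, chosen among 2645 genes whose average log2 CPM was within 1 of its own by the root mean square difference in centred log2 CPM over the 4 libraries (0.0423, 0.0494 and 0.0594). Adck3, a kinase-like gene of coenzyme Q synthesis, was at 23.6, 18.8, 5.58 and 4.46 CPM under GSI replicates 1 and 2 and washout replicates 1 and 2. Gbp10, a guanylate-binding protein gene, was at 12.4, 10.8, 3.38 and 2.38 CPM in the same order, and Isg20, an interferon-induced exonuclease gene, at 16.8, 14.1, 4.20 and 3.42 CPM. With 4 libraries, mainly the size of the change and the spread between replicates set this likeness.

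The partners of the sheddases were examined next. A group of tetraspanins escorts ADAM10 to the cell surface and iRhom proteins do so for ADAM17. Of 9 genes, 7 were tested, of which 1 was higher (27.0% of all genes), 2 were lower (25.4% of all genes) and 4 did not pass at an adjusted p below 0.05, and only 1 passed without GSI replicate 1. The list had a median log2 fold change of -0.10 against -0.01 for all genes. Tspan17 had the largest fall, with 5.41 and 1.92 CPM under GSI and 0.852 and 0.372 CPM upon washout (log2 fold change of -2.48 ± 0.604, SE; edgeR adjusted p = 0.0153), but it rests on GSI replicate 1, without which the value was -1.52 (adjusted p = 0.0922). Tspan5 had the largest rise, from 36.3 and 38.8 to 45.4 and 49.9 CPM (log2 fold change of 0.34 ± 0.106, SE; edgeR adjusted p = 0.0356), under the fold limit and no longer past the adjusted p threshold under 6 of 14 alternatives, among them those without GSI replicate 1, GSI replicate 2 or washout replicate 2. Rhbdf2, encoding the iRhom that matures ADAM17 in blood cells and named here after its values were seen, was the other gene that fell. It was at 23.8 and 25.2 CPM under GSI and at 9.14 and 9.90 CPM upon washout (log2 fold change of -1.37 ± 0.135, SE; edgeR adjusted p = 0.00066), while its client Adam17 did not pass the test. With the offset for GC content and gene length the value of Rhbdf2 was -0.96, inside the fold limit.

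Furin-type convertases remove the inhibitory prodomain of both ADAM proteases, and inhibitors of ADAM proteases are found among the TIMP proteins and in RECK. Of 9 genes of these kinds 5 were tested, with 0 higher, 3 lower and 2 not past the test, against 27.0% higher and 25.4% lower among all genes (median log2 fold change of -0.50). Furin, likewise named after its values were seen, was at 72.3 and 56.5 CPM under GSI and at 22.1 and 22.0 CPM upon washout (log2 fold change of -1.55 ± 0.143, SE; edgeR adjusted p = 0.000566). Reck, with the largest fall, was at 2.66 and 2.40 CPM under GSI and at 0.823 and 0.818 CPM upon washout (log2 fold change of -1.62, edgeR adjusted p = 0.00616). Timp3, an inhibitor of ADAM17 and the largest rise by value, had a log2 fold change of 0.81 and did not pass (adjusted p = 0.111). The remaining tested genes are named after their values were seen. Timp2 was lower but under the fold limit (-0.50, edgeR adjusted p = 0.00808). The other tested convertase gene, Pcsk7, did not pass (-0.32, edgeR adjusted p = 0.0575) but did so under 6 of 14 alternatives.

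Of 10 other membrane-bound ADAM genes only 3 had enough reads to be tested, and Adam23, Adam28 and Adam33 were at 0 in all libraries. Adam15 fell from 28.8 and 20.8 to 9.31 and 7.74 CPM (log2 fold change of -1.54 ± 0.204, SE; edgeR adjusted p = 0.00161), whereas Adam9, with a log2 fold change of 0.27, did not pass (adjusted p = 0.0829) but did so under 4 of 14 alternatives, among them that without washout replicate 2 (0.36, adjusted p = 0.0488), which brought the genes past the threshold from 1 to 2. By adjusted p alone 25.4% of all genes were lower. The median of the 3 was -0.31.

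Among 5 genes reported to help assemble or to modulate γ-secretase, 3 were tested, with 2 higher, against 27.0% of all genes, and 1 not past the test (median log2 fold change of 0.33). Rer1, a retrieval receptor that holds back unassembled subunits, rose from 115 and 113 to 154 and 149 CPM (log2 fold change of 0.41 ± 0.0879, SE; edgeR adjusted p = 0.0100), opposite in sign to the changes of Psen2, Aph1b and Aph1c. Rer1 stayed under the fold limit, and it no longer passed the adjusted p threshold when either GSI library was left out or with scaling by total count. Under each of these 3 alternatives 0 of the 3 genes passed, and without washout replicate 2 only 1 did. Tmed10 was at 87.5 and 77.2 CPM under GSI and at 90.4 and 75.3 CPM upon washout, with no detectable difference (log2 fold change of 0.01).

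The other aspartyl proteases of membranes comprise the presenilin relatives of the signal peptide peptidase family and the β-secretases. Of 7 such genes 4 were tested, and 1 rose, against 27.0% of all genes (median log2 fold change of -0.10). The number past the test was 0 without GSI replicate 1 and 2 without either washout library. Sppl2b was at 29.4 and 33.4 CPM under GSI and at 42.7 and 46.0 CPM upon washout (log2 fold change of 0.50 ± 0.115, SE; edgeR adjusted p = 0.0126), which stayed under the fold limit and did not pass the adjusted p threshold without GSI replicate 1 or with scaling by total count. Bace1, the largest fall by value, had a log2 fold change of -0.32 and did not pass (adjusted p = 0.0683), but it passed under 5 of 14 alternatives, among them that without washout replicate 2 (-0.40, adjusted p = 0.0365).

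The substrate list of γ-secretase held 28 genes, of which 18 were tested, 3 rose, 7 fell and 8 did not pass at an adjusted p below 0.05 (27.0% and 25.4% of all genes), with a median log2 fold change of -0.40. Without GSI replicate 1 only 5 of them passed, in place of 10. Notch1, the receptor whose cleavage DAPT blocks in these cells and also named after its values were seen, rose from 506 and 636 to 1184 and 1332 CPM (log2 fold change of 1.14 ± 0.156, SE; edgeR adjusted p = 0.00180), and its value was 1.79 with the offset for GC content and length. It was 0.94 with scaling by total count and 0.98 without GSI replicate 1, both under the fold limit. The other receptor genes, also named after their values were seen, did not share this rise. Notch2 and Notch4 were lower (log2 fold changes of -0.36 and -0.98, edgeR adjusted p of 0.0178 and 0.0417), past the adjusted p threshold under 9 and 8 of 14 alternatives. Notch3 did not pass (0.14, edgeR adjusted p = 0.499). Cdh1, the E-cadherin gene, had the largest rise, from 0.469 and 2.47 to 4.50 and 20.6 CPM (log2 fold change of 3.26 ± 0.957, SE; edgeR adjusted p = 0.0296). Its replicates were far apart in both conditions, and the adjusted p was 0.0514 with DESeq2 and 0.0926 without GSI replicate 1, while without washout replicate 2 the log2 fold change was 1.80. Il6ra, an interleukin receptor gene, had the largest fall, from 9.16 and 5.48 to 0.940 and 0.372 CPM (log2 fold change of -3.33 ± 0.450, SE; edgeR adjusted p = 0.00172). The amyloid precursor gene App, named after its values were seen, was at 1 count in 1 library and at 0 in the others.

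**Figure D5:**
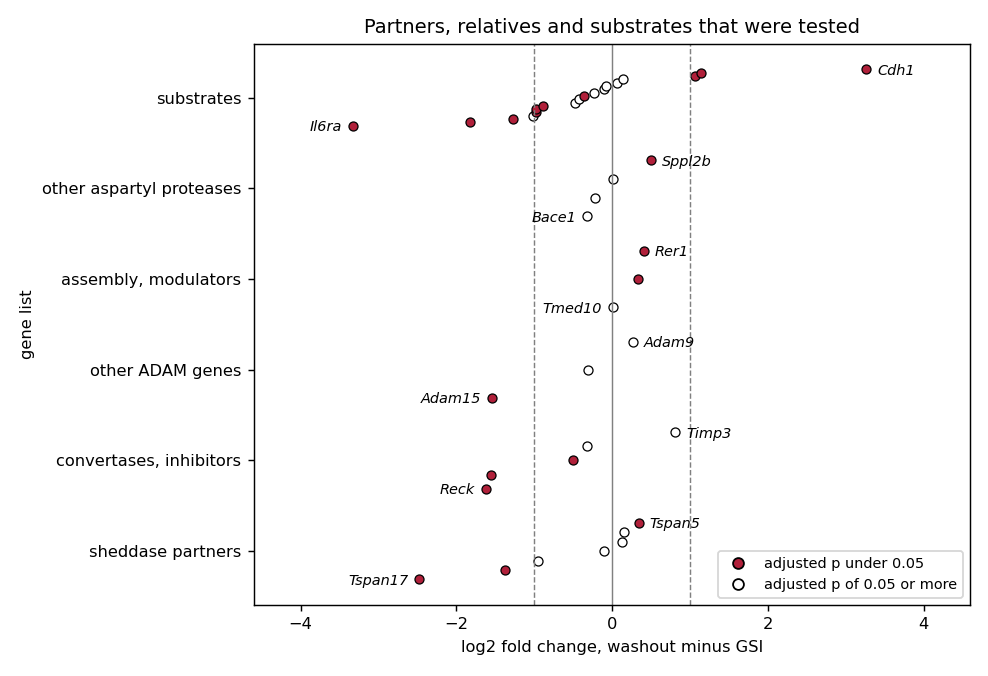
Log2 fold change (washout minus GSI) of every tested gene of the 6 lists; filled points passed an adjusted p below 0.05, open points did not, the labelled genes have the highest and the lowest value of each list, and dashed lines mark -1 and 1. Of the 3 assembly and modulator genes, 2 lie above 0 and Tmed10, at 0.01, cannot be told from 0. Each of the other lists holds genes on both sides of 0, and the points of the sheddase partners reach from -2.48 to 0.34.

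Some T-cell progenitor markers, given above, and markers of other blood cell types moved together with the fall of Psen2, Aph1b and Aph1c, and their part in the result was not tested. The myeloid list summed to 53.4 and 41.6 CPM under GSI and 13.1 and 12.7 CPM upon washout, with Itgam at 48.7, 37.9, 5.38 and 4.76 CPM in the same order, while Lyz2 and Elane were at 0 and Cd68 rose upon washout. The mast cell list, at 176 and 77.4 CPM under GSI and 9.34 and 2.23 CPM upon washout, consisted of Cpa3 alone, with Ms4a2, Fcer1a, Tpsb2 and Mcpt8 at 0. The erythroid list was at 12.0 and 10.4 CPM under GSI and 4.99 and 4.39 CPM upon washout, with Hba-a1 and Hbb-b1 at 0. In these bulk libraries, fewer cells of a type and less RNA per cell cannot be told apart.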

How the data were processed

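RNA was ribosomally depleted and made into libraries with a stranded total RNA kit. Per the labels and methods, the authors used trimGalore for trimming, HISAT2 2.2.1 for alignment to mm9 with a single reported alignment for each read, and summarizeOverlaps with the iGenomes gene models for counting. The alignment capped intron length, so reads across longer introns could not be placed as spliced alignments. The setting was the same for all libraries. Its effect on the counts, which may differ between genes, was not tested. The table as deposited holds raw gene counts, 1 column per library (4 in all), neither normalized nor filtered. The strand setting of the counting is not given in the sources used here.

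The 8 genes, the lists and the tests were chosen with earlier results of these data known. Named genes are the 8 members, the tested gene with the largest rise and fall in each list, the 3 genes most like the member with the smallest adjusted p, and Hey1 and Dtx1. Beside these, genes that overlap a member, cell type markers and genes at 0 are named, and others are marked. Counts were analysed with edgeR 4.0.16 in R 4.3.3 (filterByExpr, TMM, quasi-likelihood test without covariates, Benjamini-Hochberg over 12266 genes). The thresholds are those of the study, whose tool, DESeq2 (here 1.42.0), was an alternative. The labels list DESeq2 1.24.0, and the methods name a later version. The others were other scalings in edgeR (DESeq2 size factors, total counts), a looser filter (1 count) and a stricter one (10 counts per library), a replicate block, thinning to the total of the smallest library, an offset for GC content and length (10962 genes), and omission of single libraries. Aph1b and Aph1c were summed as an alternative chosen after seeing the data. Standard errors are the log2 fold change over the square root of F. The biological coefficient of variation was 0.121. Replicates differed beyond counting noise (chi-square per degree of freedom of 18.2 in GSI and 28.5 upon washout). On simulated data for this comparison, with 200 of 12158 genes changed by 1.5 on the log2 scale, 176 were recovered with 17 false calls. In the real data 27.0% of genes were higher and 25.4% lower by adjusted p alone. The simulated setting therefore differs, and its counts do not give the error rate of these data. Positions, lengths and GC content came from GENCODE vM1 on mm9, and all 8 members matched by symbol. Promoters came from the RefSeq table, with 10 windows for the 8 genes.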

Additional observations from a re-analysis of the deposited data

How the results depend on the processing

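The 8 members were recomputed under 14 alternatives, giving 112 values, of which 95 kept their direction and their side of the adjusted p threshold alone, 3 (Psen2 and Ncstn) no longer passed that threshold, 8 (all Adam10) newly passed it and 6 changed sign. With the fold limit added, Adam10 and Ncstn were called under no alternative, and 2 or 3 members were called lower, Psen2 dropping out without GSI replicate 1 (-0.71), without washout replicate 2 (-0.98) and with the GC content and length offset, without and with the block (-0.83 and -0.85). Log2 fold changes ranged from -2.31 to -1.87 for Aph1b, -2.36 to -1.99 for Aph1c, -1.29 to -0.71 for Psen2, -0.61 to -0.36 for Ncstn and -0.40 to -0.09 for Psenen. Scaling by total count gave 586 genes higher and 1963 lower in place of 950 and 1437, so that 23.0% instead of 39.8% of the called genes were higher, and a value of -0.10 for Adam17. For Aph1a, which never passed the test, the value was -0.22 with total count scaling, 0.01 without a filter beyond 1 count, 0.14 with the GC content and length offset, 0.15 with that offset and the replicate block, and between -0.07 and 0.03 with 1 library left out. Adam10 passed the adjusted p threshold with DESeq2 (-0.50), total count scaling (-0.71), no such filter (-0.48), the replicate block (-0.53), thinned counts with the block (-0.56), the offset without and with the block (-0.62 and -0.63) and without washout replicate 1 (-0.84), with adjusted p between 2.59e-07 and 0.0271. The cause of these differences was not tested. With 1 library left out, a lone library being assumed to vary like the other condition, 2202 to 3334 genes were higher and 2028 to 2815 lower at an adjusted p below 0.05 alone (3315 and 3120 with all libraries), and 2 to 5 members were lower by that rule. The lowest of these counts came without GSI replicate 1, and the highest for members, 5, came without washout replicate 1, where Adam10 passed.

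The replicate numbers are shared between the conditions, but nothing states that they mark a shared batch. Deviations of same-numbered libraries correlated at 0.533 over genes, with only 2 pairs. The replicate block gave 981 genes higher and 1576 lower, and 4243 and 4216 by adjusted p alone. Depth limits Aph1c most, with 17 counts in washout replicate 2.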
